A study of Arabidopsis thaliana with 6 samples.

Results

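A set of 128 probe sets was bright in wild-type anthers, at most 1/4 as bright on 2 *myb80* mutant arrays and partly kept on the other one, mutant replicate 4. They were chosen from the 22746 probe sets of an Affymetrix array that are not controls, on the intensities as deposited, with values under 16 raised to that floor. A member had an intensity of at least 100 on every wild-type array, at most 1/4 of the lowest wild-type value on mutant replicates 1 and 5-2, and more than 1/3 of it on mutant replicate 4. These bounds were met by 137 probe sets, of which 9 were left out by gene name (AtVEX1, AT5G48140, AT5G45880, AT5G07430, ACT12, RALFL26, CHX19, XIC and the probe set shared by VGD1 and VGDH1). The values of all 6 arrays thus chose the members, so the levels below are a description, and the members' calls in a fit over all probe sets support nothing about them.

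The mutant group is the *myb80* mutant of *Arabidopsis thaliana*, with arrays named 1, 4 and 5-2 in the labels, and the other group is wild type, with arrays named 2, 5 and 6. Each biological replicate pooled about 1000 dissected anthers at stages 5 to 8, a span from pollen mother cells to released microspores. The *myb80* allele, the plants' accession and age, and the meaning of the name 5-2 are not given in the labels. No probe set names MYB80 in the probe table used here, so the label of mutant replicate 4 was not checked on the mutated gene.

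MYB80 is a MYB transcription factor active in the tapetum, whose cells surround and feed the microspores. Microspores build a wall, divide and become pollen grains, which store transcripts for the later growth of the pollen tube. Pectin-modifying enzymes, calcium-binding proteins, kinases and vesicle traffic factors of the growing tube tip are typical products of late pollen genes. In whole anthers, fewer cells of a type and less RNA per cell cannot be told apart.

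Of the 7998 probe sets with all wild-type arrays at 100 or more, 170 were at or below 1/4 of the lowest wild-type value on both mutant 1 and mutant 5-2. On mutant 4 these 170 split into 137 above 1/3 of it, 21 between 1/4 and 1/3 and 12 at or below 1/4. The last 12, lost on every mutant array, had a median on mutant 4 of 0.128 of the wild-type geometric mean. The same bounds with mutant 1 as the array that keeps its level were met by 20 probe sets, and with mutant 5-2 by 0. Before names were left out, loss with partial retention was therefore found most often with mutant 4 as the array that kept its level. These counts, and the mirrored ones below, were read on the deposited intensities, where mutant 4 had the highest median. With the arrays exchanged they were not read under another scaling, and the number of probe sets meeting the other bounds was not counted. In the mirrored direction, 26 probe sets were at least 100 on mutant 1 and mutant 5-2 and at least 4-fold above the highest wild-type value there. Of these, 7 were under 3-fold on mutant 4, while the same count was 0 with mutant 1 and 0 with mutant 5-2 in its place.

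Over the 128 members the median level was 7.01% of the wild-type geometric mean on mutant 1, 45.0% on mutant 4 and 9.39% on mutant 5-2. The median was 120.1%, 101.1% and 79.7% of that mean on wild-type 2, 5 and 6. On mutant 4 the members ranged from 34.9% to 107.5% of the lowest wild-type value, with 36 between 1/3 and 1/2 of it, 53 between 1/2 and 2/3, 37 between 2/3 and 1, and 2 above it. Mutant 4 was below every wild-type array in the other members; that it lies above mutants 1 and 5-2 is set by the rule. The 2 exceptions carry no gene name in the probe table and were singled out after their values were seen. 245912_at had 40.4, 189.5 and 28.2 on mutants 1, 4 and 5-2, against 449.5, 176.3 and 363.2 on wild-type 2, 5 and 6, and 246208_at had 18.2, 185.5 and 16, against 177.6, 521.5 and 173.3. With the arrays shifted to a common median neither exceeded the lowest wild-type value on mutant 4, and after quantile normalization 5 members did.

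**Figure D1:**
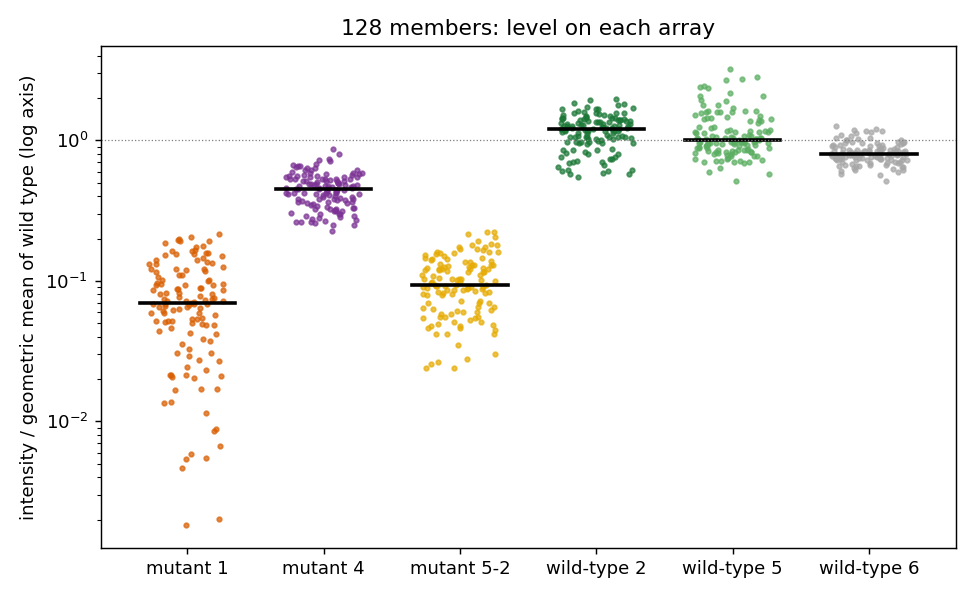
Intensity of each of the 128 members divided by its geometric mean in wild type (log axis), on each of the 6 arrays; points are probe sets and bars are medians. The bar of mutant 4 is at 45.0%, between those of mutants 1 and 5-2 (7.01% and 9.39%) and those of the wild-type arrays (79.7% to 120.1%).

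**Figure D2:**
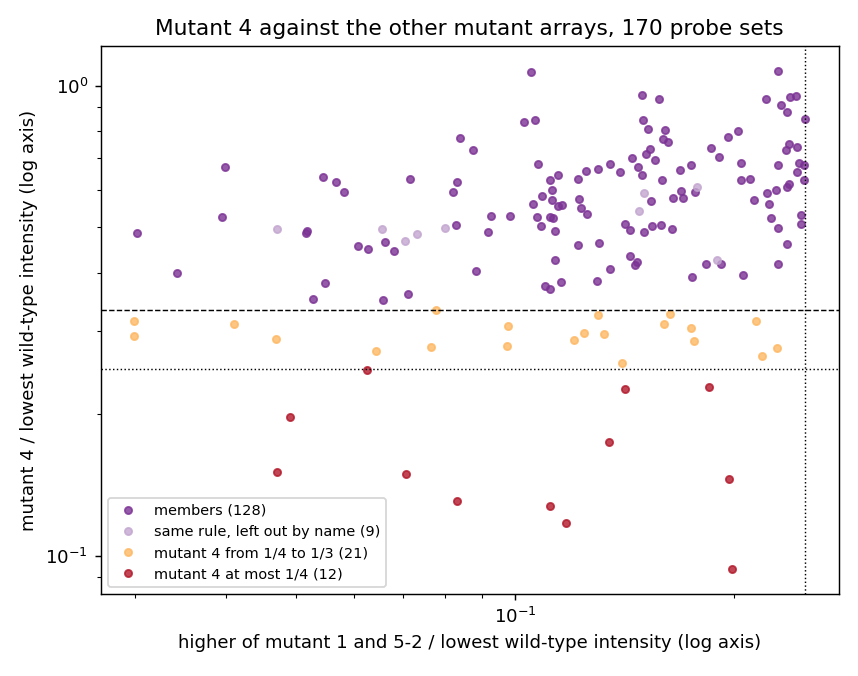
For the 170 probe sets at or below 1/4 on mutants 1 and 5-2, the level on mutant 4 (vertical) against the higher level of mutants 1 and 5-2 (horizontal), each divided by the lowest wild-type intensity, on log axes. Dashed and dotted lines mark 1/3 and 1/4; 137 points lie above the dashed line, 128 of them members.

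The bounds cut through a continuous range, read here only on probe sets with 1 gene in the probe table. Unnamed probe sets lay nearer to some bounds, such as the member 260143_at at 34.9% on mutant 4. Just inside the mutant 4 bound were AT3G28840, AT2G33690 and AT5G44300, at 35.1%, 36.8% and 38.3% of the lowest wild-type value. Just outside were AT3G03430, AT3G02480 and AT2G18340, at 33.3%, 32.6% and 31.6%. For the bound on mutants 1 and 5-2, AT2G30630 was just inside at 25.0% and AT5G25550 just outside at 26.7%. For the wild-type minimum, AT1G32250 was just inside with a lowest wild-type intensity of 103 and AT5G15110 just outside with 96.1.

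In a limma fit of mutant against wild type over the brighter probe sets (the dimmest 1 in 3 were dropped), 1.6% of 15164 probe sets were called lower at adjusted p under 0.05. The calls were 68 higher and 243 lower, against 54 and 87 on the deposited values and 61 and 133 after quantile normalization. All 128 members were tested there, of which 60 were called lower and 68 were not, with a median log2 difference of -2.84, against 0.04 over all probe sets tested. The rule used this contrast, so nothing is read from the count. Without mutant 4 the fit called 128 members, and without mutant 5-2, wild-type 2 or wild-type 5 it called 0, against 3 without wild-type 6 and 13 without mutant 1. With all 22746 probe sets kept, 0.00879% were called lower, none of them a member, and 119 members had an unadjusted p under 0.05. On the scaled arrays all 3 mutant values lay below all 3 wild-type values in 6.91% of probe sets, and in all 128 members.

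Array-wide readouts of mutant 4 were set beside the members. Its median intensity, the highest of the 6, was 81.1, against 76.1 and 64.8 on mutants 1 and 5-2 and 69.5 to 73.5 on the wild-type arrays. Its actin control, read as 3′ over 5′ signal, which grows as RNA is broken or copied in part, was also the highest, while its GAPDH control was not. This quotient was 20.3, 29.6 and 17.1 on mutants 1, 4 and 5-2, against 24.7, 22.5 and 13.3 on wild-type 2, 5 and 6. For GAPDH it was 4.08, 3.64 and 2.39, against 3.91, 4.03 and 4.57. Over the 22576 probe sets outside the 170, Pearson's r of log2 intensity across probe sets was 0.906 to 0.917 between mutant 4 and the wild-type arrays, against 0.900 to 0.922 for mutant 1 and 0.903 to 0.933 for mutant 5-2. Over all 22746 probe sets r with the wild-type arrays was 0.904 to 0.916 for mutant 4, 0.879 to 0.905 for mutant 1 and 0.890 to 0.919 for mutant 5-2. The ranges of the 3 mutant arrays overlapped in both readings. The 170 were chosen as low on mutants 1 and 5-2, so leaving them out favours these 2 arrays. Nothing on closeness to wild type is read from the overlap. Among the mutant arrays r outside the 170 was 0.918 and 0.919 between mutant 4 and mutants 1 and 5-2, against 0.939 between mutants 1 and 5-2. Genes are not independent replicates, and the part of array brightness or RNA quality in the levels of mutant 4 was not tested.

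Of the members, 65 had 1 gene in the probe table, 3 were shared by several genes and 60 are unnamed here. On mutant 4 the named ones had a median of 45.6% of the wild-type geometric mean (range 22.8% to 80.2%) and the unnamed ones one of 43.2% (24.9% to 73.5%), and the ranges overlap. The named members were grouped by what their products are known to be, after their values were seen, and the groups overlapped widely on mutant 4.

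**Figure D3:**
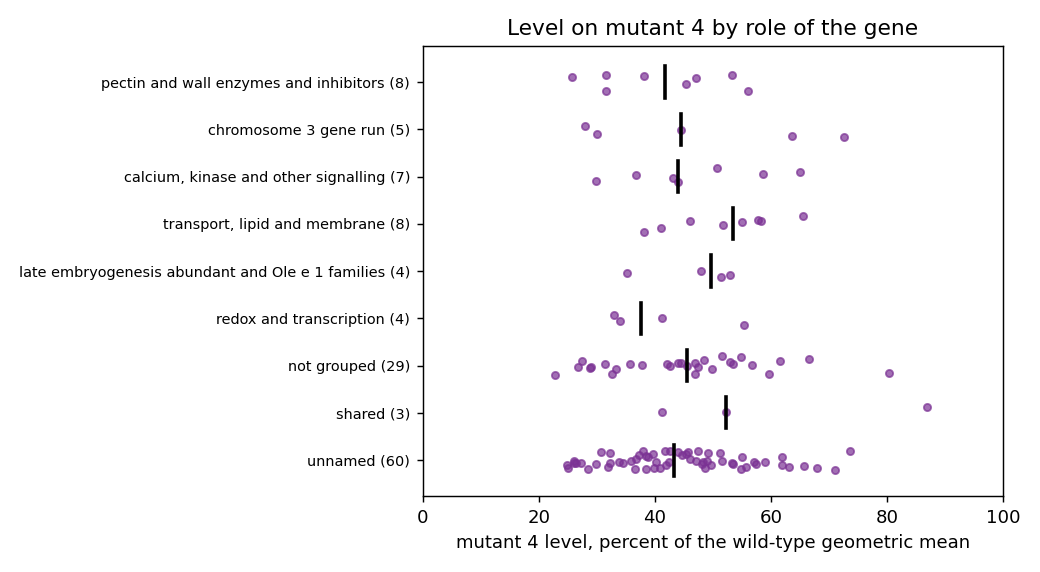
Level on mutant 4 as a percentage of the wild-type geometric mean for each member, by the role of its gene, with the number of members in brackets; bars are medians. Every group overlaps the others, with group medians from 37.7% (redox and transcription) to 53.4% (transport, lipid and membrane).

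Enzymes and inhibitors of the pectin wall formed a group of 8 named genes. AT3G07820, a polygalacturonase that cuts the pectin backbone, had intensities of 16, 3333 and 208 on mutants 1, 4 and 5-2, against 9277, 10417 and 6873 on wild-type 2, 5 and 6. Mutant 1 was at the floor, mutant 4 reached 48.5% of the lowest wild-type value, and mutant 5-2 was in between but far closer to mutant 1. The pectate lyase gene AT3G01270 had 16, 861 and 189 on the mutant arrays, against 3537, 2671 and 2134 in wild type. It showed the same order, with mutant 4 at 40.4% of the lowest wild-type value.

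AT2G47050, of the invertase and pectinesterase inhibitor family, had 35.5, 746 and 132 on the mutant arrays, against 2379, 1583 and 1187 in wild type. AT1G10770, of the same inhibitor family, had 63.0, 401 and 41.3, against 587, 832 and 746. AT5G19580, a glyoxal oxidase-like gene, had 125, 1119.5 and 213, against 2646, 2060.2 and 1699. In all 3 mutant 4 was below every wild-type array, as in all but 2 of the 128 members. Mutant 4 was at 62.9%, 68.3% and 65.9% of the lowest wild-type value. The other named genes of the group, the pectinesterase genes AT3G05610 and AT5G07420 and the polygalacturonase gene AT2G23900, were at 68.3%, 50.3% and 39.6% on mutant 4.

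The shared probe sets belong here for the most part. The probe set of PPME1, a pectin methylesterase of pollen tubes, and of its relative AT5G07410 had 45.1, 3543 and 701 on mutants 1, 4 and 5-2, against 8449, 7093 and 5197 on wild-type 2, 5 and 6. The probe set of the exopolygalacturonase genes AT3G14040 and AT3G07850 had 1228, 15662 and 4015, against 19089.6, 18620.4 and 16505. On mutant 4 this exopolygalacturonase probe set was at 94.9% of the lowest wild-type value, and it was the only member whose level on mutant 1 exceeded 1000 other than the unnamed 257102_at. Which gene of a shared probe set gave the signal cannot be told apart.

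A run of neighbouring genes on chromosome 3 gave 5 of the brightest named members. AT3G28750 had 42.0, 3389.9 and 202 on mutants 1, 4 and 5-2, against 8286, 10587 and 5053 on wild-type 2, 5 and 6. AT3G28780 had 16, 2359 and 203, against 9196, 8987 and 5915. AT3G28790 had 132, 4501 and 758, against 8392, 4813 and 5904. On each of them mutant 1 was lowest and mutant 5-2 next. Mutant 4 was below all wild-type arrays, as in all but 2 of the 128 members, though on AT3G28790 it reached 93.5% of the lowest one. AT3G28830 had 98.8, 4553 and 972, against 9526, 6431 and 6002. AT3G28840 had 52.8, 2728 and 409, against 11319, 10512 and 7765. Within the run mutant 4 thus ranged from 35.1% to 93.5% of the lowest wild-type value, nearly the whole span of the named members.

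The run holds 10 protein-coding genes in RefSeq's order, of which 9 are named by a probe set. The shared probe set of AT3G28810 and AT3G28820 was also a member, with 16, 76.7 and 16 on the mutant arrays, against 148, 316 and 138 in wild type. The neighbours AT3G28760 and AT3G28770 were no members and dim on every array, at no more than 88.7. AT3G28980, farther along the same chromosome, had 177, 5874 and 1250.4, against 12137, 10199.9 and 8975, and repeated the order of the run.

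**Figure D4:**
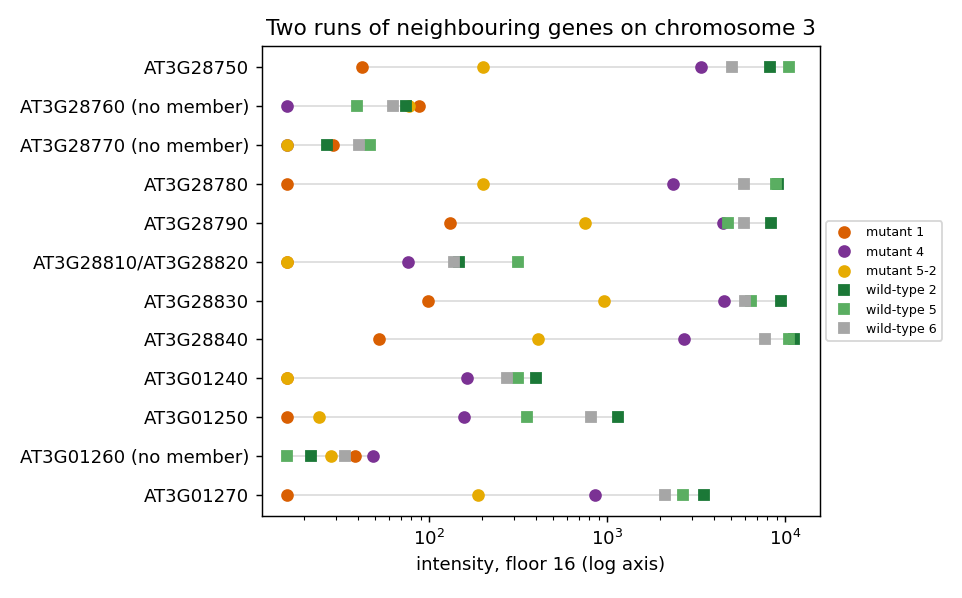
Intensity (log axis, floor 16) on mutants 1, 4 and 5-2 (circles) and wild-type 2, 5 and 6 (squares) for the genes of a pair of runs on chromosome 3; later symbols cover earlier ones where values coincide. In every member row mutant 4 stands to the right of mutants 1 and 5-2 and to the left of all wild-type arrays, while AT3G28760, AT3G28770 and AT3G01260 are dim on all arrays.

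Neighbourhood was a feature that the rule did not use. Of the 64 named members placed in RefSeq's order of protein-coding genes, 8 (12.5%) had another named member within 5 genes, against 2.22% of the 4103 named genes with all wild-type arrays at 100 or more. All 8 lie on chromosome 3, the 5 genes of the run above and AT3G01240, AT3G01250 and AT3G01270. Shared probe sets and genes left out by name do not enter this count, and such neighbours that met the bounds lie elsewhere too. They were AT5G07410, AT5G07420 and AT5G07430 on chromosome 5, and VGDH1, VGD1 and AT2G47050 on chromosome 2. On chromosome 3, AT3G07820 and AT3G07850, the latter through its shared probe set, were a further case. Neighbouring genes are not independent. None of the 8 named genes lost on every mutant array had a member that near, but 8 genes are too few for a contrast with the members. AT3G01240 had 16, 164 and 16 on mutants 1, 4 and 5-2, against 402, 319.5 and 275 on wild-type 2, 5 and 6, and AT3G01250 had 16, 158 and 24.3, against 1159, 356 and 812. AT3G01260, which lies between AT3G01250 and AT3G01270, was dim throughout, with 38.8, 48.7 and 28.1 on the mutant arrays, against 21.8, 16 and 34.0 in wild type.

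In a stretch of 21 genes, wider than the window of 5 used above, the pattern was not always shared. In the stretch of chromosome 3 from AT3G21900 to AT3G22060, AT3G21970, which encodes a cysteine-rich repeat secretory protein, had 50.8, 181 and 36.3 on mutants 1, 4 and 5-2, against 796, 390.4 and 419.8 on wild-type 2, 5 and 6. The probe set of AT3G21920 and AT3G21930 was lost on mutant 4 as well, with 16, 20.6 and 43.8, against 429, 221 and 254. AT3G22050 likewise had 16, 25.5 and 16, against 127, 170.3 and 113. AT3G21960, which was no member, had 41.1, 134.9 and 39.6, against 286, 144.7 and 92.5. It was too dim on wild-type 6, and mutants 1 and 5-2 also stayed above the bound set for them. Mutant 4 was the highest mutant array on this gene, but at 145.9% of the lowest wild-type value it lay above wild-type 6. Partial retention and loss on mutant 4 thus occurred in the same stretch, which was singled out after the values were seen.

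Signalling genes made up 7 named members. PC1, a pollen calcium-binding protein, had 39.3, 269 and 68.3 on mutants 1, 4 and 5-2, against 605, 605 and 405 on wild-type 2, 5 and 6. AT2G16750, a kinase gene, had 96.9, 838 and 116, against 2330.5, 1415 and 2215. On these genes mutant 4 was at 66.3% and 59.2% of the lowest wild-type value. It was below every wild-type array on both, as in all but 2 of the 128 members. The calcium-binding EF-hand gene AT1G32250, the phosphoinositide kinase-like gene AT3G56600, the shaggy-related kinase gene AT3G61160 and the receptor-like cytoplasmic kinase gene AT3G20530 were at 69.4%, 70.2%, 71.6% and 49.1%.

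Transport, lipid and membrane genes made up 8 named members. TET15, a tetraspanin (a small membrane-spanning protein), had 16, 249 and 38.9 on mutants 1, 4 and 5-2, against 674, 445 and 261 on wild-type 2, 5 and 6. TMT3, a sugar transporter of the vacuole membrane, had 134, 1393 and 246, against 2701, 2161 and 1645. XIE, a myosin motor that moves organelles along actin, had 156, 897 and 354, against 3491, 2116 and 1421. Against the lowest wild-type value TET15 was the best kept member with its own gene on mutant 4, at 95.4%, though at 58.2% of the geometric mean, where AT2G15560 was at 80.2%. TMT3 and XIE were at 84.7% and 63.1% of the lowest value. The long-chain acyl-CoA synthetase gene AT4G11030 was at 53.2%, the oleosin gene AT2G25890 at 65.4%, the outer envelope protein gene ATOEP16-2 at 59.4% and the p24 cargo receptor gene AT3G29070 at 67.8%. AT5G28470, a transporter gene of the nitrate and peptide transporter family, had 284, 852 and 330.0, against 1522, 1516 and 1399, the tightest wild-type values of the group, with an SD of 0.07 on the log2 scale.

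Late embryogenesis abundant proteins, which accumulate in drying tissues such as seeds and pollen, gave 3 of 4 genes in the next group. AT5G53820 had 335, 2508 and 581 on mutants 1, 4 and 5-2, against 5887, 5068 and 3895 on wild-type 2, 5 and 6. AT5G38760 had 226, 1455 and 284, against 4178, 2269 and 2186. AT4G13230 had 16, 158 and 17.9, against 418, 343 and 249. These 3 stood close together on mutant 4, at 64.4%, 66.5% and 63.3% of the lowest wild-type value. AT1G29140, of the Ole e 1 pollen allergen family, was at 52.8%.

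Redox and transcription genes made up 4 named members. The peroxidase gene AT5G47000, the glutaredoxin gene AT3G62960, the bZIP factor gene AT1G35490 and the zinc finger gene AT1G26610 were at 52.2%, 41.6%, 42.5% and 72.9% of the lowest wild-type value on mutant 4. The other 29 named members were not grouped by role, and ranged from 36.8% to 93.8%. Among those best kept on mutant 4 were AT2G04675, with 16, 96.9 and 22.8 on mutants 1, 4 and 5-2, against 222, 103 and 134 on wild-type 2, 5 and 6, and AT2G15560, with 22.6, 249 and 66.8, against 309, 283 and 341. AT2G30630, AT1G78460, AT1G63060 and AT5G50830 followed at 85.0%, 84.5%, 80.8% and 80.3%. AT2G30630 had 16, 89.0 and 26.2, against 177, 105 and 179, and AT1G78460 had 31.5, 249.8 and 23.1, against 317, 1121 and 296. AT1G63060 had 16, 419 and 78.8, against 955, 972 and 518, and AT5G50830 had 16, 84.1 and 16.8, against 105, 221 and 110.5. In each of these 6 mutant 4 stayed below every wild-type array, as in all but 2 of the 128 members.

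The other mutant arrays were not alike on the members. Mutant 5-2 was above mutant 1 in 83 members and below it in 31, and both were at the floor in the other 14. Over the 7998 bright probe sets mutant 5-2 was above mutant 1 in 52.7%. With the arrays at a common median the member counts were 89 and 25 and the share over the bright probe sets was 72.0%; after quantile normalization they were 97 and 21 and 49.8%. The share of members with mutant 5-2 above mutant 1 was thus below that over the bright probe sets under the common median and above it under the other scalings. Of the 128 members, 44 were at the floor on mutant 1, 26 on mutant 5-2 and 0 on mutant 4, so ratios to those values understate the distance.

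The wild-type arrays also differed on the members. Wild-type 2 was the highest wild-type array in 78 members, wild-type 5 in 45 and wild-type 6 in 5, that is, 3.91% for wild-type 6 against 34.2% over the bright probe sets. With a common median these counts were 83, 42 and 3, and after quantile normalization 77, 46 and 4. The SD of log2 intensity over the 3 wild-type arrays had a median of 0.45 in the members and 0.25 over the bright probe sets. It was 0.47 in the 21 probe sets between 1/4 and 1/3 on mutant 4 and 0.36 in the 12 lost on every mutant array, where wild-type 6 was highest in 0 and 1. The wider spread was thus seen in those sets too.

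In 15 members (11.7%) wild-type 5 was at least 2-fold above both other wild-type arrays, against 0.5% of the bright probe sets. This held in 1 of the 21 probe sets between 1/4 and 1/3 on mutant 4 and in 0 of the 12 lost on every mutant array. The bounds are set against the lowest wild-type value, so the wild-type spread of the members is not independent of the rule. The pectinesterase gene AT5G07420 had 16, 133 and 28.7 on mutants 1, 4 and 5-2, against 313, 1675 and 265 on wild-type 2, 5 and 6. AT2G26490, which encodes a WD40-repeat protein, had 16, 52.3 and 16, against 104, 508 and 112. AT3G61160 had 105, 499 and 97.9, against 697, 2738 and 763. On these genes mutant 4 was near 1/2 or more of the lowest wild-type array but far below wild-type 5. The other named ones were AT5G39880, AT1G78460, AT3G05610, AT3G20530, AT2G19000, AT3G10460 and the shared probe set of AT3G28810 and AT3G28820. In 9 members (7.03%) wild-type 2 stood at least 2-fold above the others, against 0.425% of the bright probe sets, and in 0 members wild-type 6 did, against 0.388%.

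**Figure D5:**
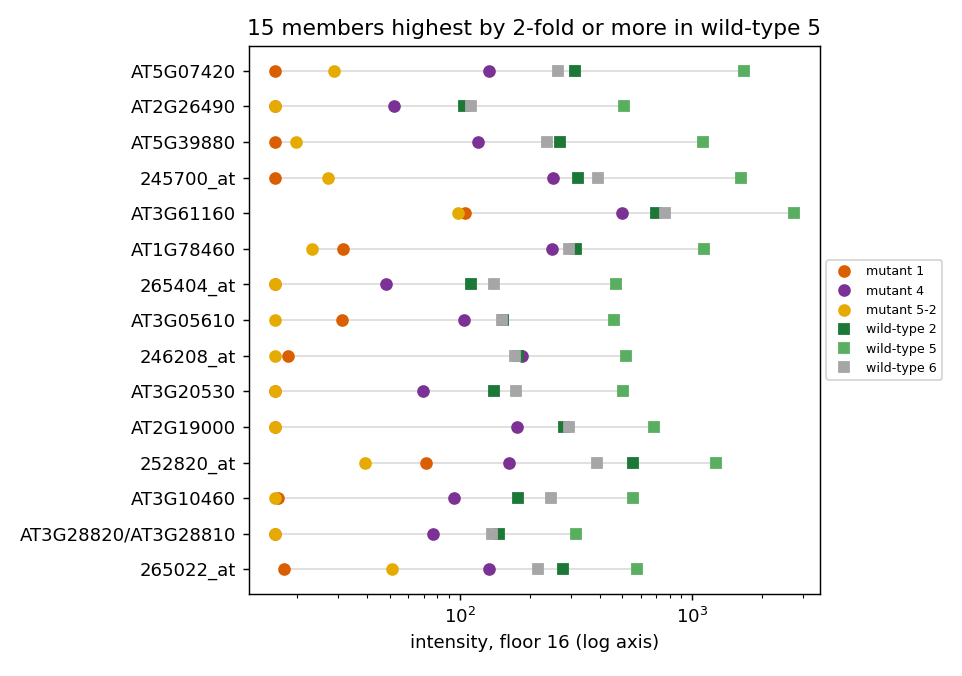
Intensity (log axis, floor 16) on each array for the 15 members at least 2-fold higher on wild-type 5 than on the other wild-type arrays, ordered by that ratio; later symbols cover earlier ones where values coincide. Wild-type 5 stands alone at the right of every row, and mutant 4 lies at or left of wild-type 2 and 6 in all rows but that of 246208_at.

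The 4 measured receptor kinase genes of the pollen tube tip list, whose products monitor the tube wall, were no members. None of them was at 100 or more on every wild-type array. ANX2 had 16, 16 and 16 on mutants 1, 4 and 5-2, against 64.2, 126 and 65.7 on wild-type 2, 5 and 6. ANX1 had 16, 16 and 16, against 71.0, 63.9 and 39.9. AT2G21480 had 25.8, 19.2 and 16, against 61.5, 81.8 and 54.3, and AT4G39110 had 53.0, 45.0 and 16, against 77.3, 216 and 77.3. On all 4 the wild-type arrays stood above the mutant arrays, and mutant 4 was level with or below mutant 1. In limma with Benjamini-Hochberg adjustment over 15164 probe sets, ANX2 fell at least 5.12-fold (adjusted p = 0.0109) and AT2G21480 fell 3.47-fold (log2 difference -1.79 ± 0.29, SE, n = 3 per group, adjusted p = 0.0221). Each was bright enough to be tested in 3 of the fits that left out 1 array, and passed without mutant 1 and without mutant 4 but not in the other one (adjusted p = 0.0625 for ANX2 and 0.101 for AT2G21480). With no filter neither passed (adjusted p = 0.129 and 0.151). ANX2 was at the floor on every mutant array, so its p-values do not cover the spread among the mutant arrays. AT4G39110 did not pass (adjusted p = 0.143), and ANX1 was left out as dim.

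Of the other pollen lists, those of ion channels and calcium kinases and of sugar uptake lacked named probe sets and are not analysed here. In the cytoskeleton list 3 of 21 genes were measured: ACT12 and XIC, left out by name, and PIPK11, a lipid kinase of the tube tip. PIPK11 had 16, 16 and 16 on the mutant arrays, against 27.8, 124 and 37.1 in wild type. ACT12 had 16, 76.9 and 21.1, against 220.2, 221 and 142, and XIC had 58.3, 134 and 59.5, against 404, 314 and 332. ACT12 and XIC met the bounds of the members, which sets their order, and PIPK11, dimmer in wild type, was at the floor on mutant 4. Of the 4 measured wall protein genes AT3G19020, AT1G49490, AT2G15880 and AT4G33970, no more than 78.0 was reached in wild type. AT2G15880 alone was bright enough to be tested, and did not pass (limma adjusted p = 0.76).

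Of the 6 measured transcription factor genes of microspores and pollen, 5 were tested, 1 was called lower and none higher. Over all probe sets tested 1.6% were called lower and 0.448% higher. AGL104, a MADS-box factor of pollen maturation, had 43.4, 54.5 and 27.4 on mutants 1, 4 and 5-2, against 240.1, 196 and 127 on wild-type 2, 5 and 6. Its relative AGL66 had 86.2, 140.4 and 65.8, against 227, 148 and 147, and AGL30 had 52.7, 139 and 73.4, against 138, 122 and 113. By limma AGL104 fell (adjusted p = 0.0171), with a log2 difference of -2.21 ± 0.33 (SE, 3 arrays a group). It passed without mutant 1, without mutant 4 and without wild-type 6, and in none of the other fits that left out 1 array (up to 0.0856), nor with no filter (0.172). AGL104 was low on every mutant array, while AGL30 on mutant 4 was level with wild type. AGL65 had 75.2, 16 and 18.4, against 53.4, 94.1 and 70.3, and did not pass (adjusted p = 0.329), but did without mutant 1 (0.0355).

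Markers of other cells were set beside the members, and their part in the pattern was not tested. Of the 17 tapetum genes 4 were measured, with a summed intensity of 12980.1 on mutant 4 and 18339 and 24403 on mutants 1 and 5-2, against 11934 to 17024 on the wild-type arrays. AT5G07230, a tapetum gene of the list, had 10718, 5406 and 12889 on mutants 1, 4 and 5-2, against 4701, 2149 and 4828 on wild-type 2, 5 and 6. AMS, a tapetal transcription factor gene, had 2129.5, 1307 and 2992, against 809, 774 and 871. On these 2 of the 4 genes, which were higher on the mutant arrays, mutant 4 lay between wild type and the other mutant arrays. Neither passed the test in limma (adjusted p = 0.273 and 0.148). Without mutant 4, AMS passed (adjusted p = 0.0238) and AT5G07230 did not. ATA27 had 3234, 4269 and 5774, against 8144, 6367 and 5968, and SHT had 2257, 1999 and 2748, against 3371, 2645 and 3019.7. These 2 did not show that order: mutant 4 lay between mutants 1 and 5-2 on ATA27 and was the lowest array on SHT. The 7 pollen coat genes listed had no named probe set.

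The 6 measured meiosis genes summed to 249, 238 and 168 on mutants 1, 4 and 5-2, against 180.2 to 204 on the wild-type arrays, and SDS was at the floor on all mutant arrays. The meiosis genes with the highest wild-type means, AT1G12790, SPO11-2, ZYP1b and SPO11-1, ran from 16 to 77.2 over all arrays. Of the sepal, petal and carpel genes 2 of 8 were measured; SPT ran from 112 to 130.1 on the mutant arrays and from 96.4 to 131 in wild type, and INO had 39.8, 78.6 and 27.2, against 25.8, 34.3 and 28.5, highest on mutant 4. Of the photosynthesis genes LHCB4.1 had 935, 663 and 696, against 353, 309.9 and 619.8, and RCA had 289, 236 and 189, against 107, 168 and 200.01. None of the 7 genes tested here passed, where 0.448% of probe sets were called higher, and SPO11-1, SPO11-2 and SDS were left out as dim.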

How the data were processed

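The deposited file holds 1 intensity on a linear scale for each of 22810 probe sets on each array, as judged from the values; no source used here names the software or normalization. Biotin-labelled cRNA was hybridised, per the labels. The 64 Affymetrix controls were left out. The rule was applied to the deposited intensities with a floor of 16. The members and lists were chosen with earlier results of these data known. For the fit of mutant against wild type, intensities were multiplied by 0.897 to 1.12 to give the arrays 1 median, since their medians spread over 0.323 (log2), then raised to the floor and log2 transformed. The dimmest 1 in 3 by their mean over all arrays were left out, and limma 3.58.1 in R 4.3.3 was used (lmFit, eBayes, two-sided, Benjamini-Hochberg, no covariate). Rule and fit were tested on simulated data.

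Probe sets were named through the platform's annotation and RefSeq's gene table for TAIR10.1, which also gave the order of genes: 13513 probe sets had 1 gene, 503 several and 8730 none. A gene with several probe sets was represented in a list by the brightest. No sequence table was at hand, so the planned promoter motifs were not analysed here. The genes given with values are the 10 brightest in wild type, the 10 best kept on mutant 4, those nearest the bounds and the listed genes; others were named by role, neighbourhood or wild-type spread after their values were seen. Alternatives covered scaling, floor, bounds, filter, variance model and leaving out arrays. The number of arrays limits the precision, and whether replicates were grown apart is not stated, so a p-value covers their spread, which may be technical. The values of 1 signalling member are not reported here.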

Additional observations from a re-analysis of the deposited data

Results flagged for a closer look

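A control probe set outside the comparison, AFFX-r2-At-U12639_at, was bright on every mutant array, including mutant 4, and dim on every wild-type array. Its deposited intensity was 3649.7, 3324 and 6869.7 on mutants 1, 4 and 5-2, against 12.8, 23.6 and 30.0 on wild-type 2, 5 and 6. On this probe set mutant 4 was thus close to mutant 1 and far from wild type, unlike on the members. The sources used here do not name its target.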

How the results depend on the processing

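The number of members stayed within 1.5 times of 128 under every alternative bound, floor, scaling and omission tried, from 88 with a wild-type minimum of 200 to 176 without mutant 5-2. Shifting the arrays to a common median gave 113 probe sets, of which 109 were among the 128, and quantile normalization gave 116, of which 112 were. Membership moved more than the count under other settings. With the wild-type geometric mean in place of the lowest value 131 probe sets were found, of which 101 were among the 128. Without wild-type 6 there were 145, of which 115 were. The rule needs mutant 4, so it was not read without it. The median level of the members on mutant 4, 0.450 of the wild-type geometric mean, was 0.399 with a common median, 0.441 after quantile normalization and 0.396 to 0.473 when 1 wild-type array was left out.

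The limma counts depended on the processing. In place of 311 probe sets and 60 members, the calls were 3 and 0 with no filter, 141 and 6 on the deposited values, 194 and 18 after quantile normalization, 532 and 119 with a floor of 32, 70 and 3 with no floor, 527 and 118 with a mean-variance trend, and 650 and 128 with array weights. Leaving out each array in turn gave 32 to 529 probe sets and 0 to 128 members. With no floor 126 members were tested. The cause of these changes was not tested. No paired analysis was possible because the replicate names of the groups are not shared.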
